A study of Homo sapiens with 12 samples.

Results

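The genes of endoplasmic reticulum (ER) folding and of the unfolded protein response were followed in MyLa cells, an established cell line of cutaneous T cell lymphoma, under 2 drugs given alone and together. The set was a list of 44 gene names covering the sensors of the response and their transcription factors, the lumenal chaperones with their cochaperones, the lectin chaperones and disulfide enzymes, the genes of ER-associated degradation, genes of the translocon and of export, and the membrane regulator WFS1. All 44 names were found among the 59050 gene names of the count table, and 43 were among the 16208 genes with enough counts to be tested. The remaining member, the degradation gene DERL3, had at most 1 count in any library. RNA was sequenced in bulk after 24 h with 3.2 nM romidepsin, an inhibitor of histone deacetylases, with 5.7 uM afatinib dimaleate, an inhibitor of the kinases of the ERBB receptor family, with both (the combination), or with DMSO alone, in 3 libraries per group. Every culture carried interleukin-2 at 20 ng/mL, and the volume of DMSO was matched to that of the combination in all groups. A single cell line was used, and nothing in the labels tells whether libraries of 1 group were grown apart. The p-values below therefore measure the spread between libraries, which may be technical.

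Proteins that enter the ER are folded by chaperones of the HSP70 and HSP90 families, by the lectin chaperones calnexin and calreticulin, and by disulfide isomerases, and those that fail are pulled back through the membrane and degraded. When unfolded protein builds up, the sensors IRE1 (gene ERN1), PERK (gene EIF2AK3) and ATF6 start the unfolded protein response: IRE1 splices the mRNA of the transcription factor XBP1, PERK slows translation and favours the factor ATF4, and ATF6 is cut to release a transcription factor. Their targets include most chaperone and degradation genes examined here, and the response is best known in secretory cells such as plasma cells, but activated lymphocytes use it too. Counts per gene do not show the splicing of XBP1 or the cutting of ATF6.

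Library totals lay between 8972228 counts in romidepsin replicate 2 and 12696653 in combination replicate 2, so that 3 counts, taken as the limit of detection, were worth 0.229 to 0.344 CPM (read counts relative to the library's total, which was scaled by trimmed mean factors). This limit covers counting error only. Reads of the keratinocyte gene KRT5 were present in afatinib replicate 3 (126 counts), combination replicate 1 (43), DMSO replicate 1 (59) and DMSO replicate 2 (94), and at most 1 count was found in any other library. KRT14 was read in the same 4 libraries and in no other. The name libraries with keratin reads, used below, rests on these 2 genes. Of the other keratins examined, KRT1 was read in no library. KRT6A and KRT16 reached at most 11 and 8 counts, and they exceeded 1 count only among these 4 libraries. KRT10 and KRT17 were read in every library. KRT10 had 394 to 1015 counts and KRT17 had 4 to 61. KRT10, SFN (702 to 2189 counts) and PERP (403 to 826) make up most of the sum given next. The summed level of 9 keratinocyte markers was 201 to 203 CPM in romidepsin, 255 to 289 in afatinib, 173 to 183 in the combination and 254 to 306 in DMSO. Their part in the results below was not tested, but the counts of members that were higher and lower are also given without these 4 libraries, which leaves 1 DMSO library and lowers the shares called among all genes too: 25.1% higher and 23.3% lower with romidepsin, 12.3% and 11.3% with afatinib, and 30.5% and 28.1% in the combination, each against DMSO. A sum over 15 T cell markers reached 685 to 705 CPM in romidepsin, 1499 to 1525 in afatinib, 407 to 427 in the combination and 2031 to 2153 in DMSO. IL2RA and CCR4 made up most of it. IL2RA averaged 422.5 ± 6.68 CPM in romidepsin, 835 ± 8.51 in afatinib, 243 ± 6.71 in the combination and 1225 ± 22.9 in DMSO (SD, n = 3 each). CCR4 averaged 131 ± 0.822, 409 ± 6.23, 89.6 ± 8.39 and 464 ± 27.4 in the same order. CD5, CD28 and TRBC1 had at most 5, 7 and 12 counts. CD4 and CD7, which mark T cells, were at 3 counts or fewer in every library, and CD3E, a subunit of the T cell receptor complex, had at most 4 counts. The summed level of 6 plasma cell markers was 30.3 to 32.5 CPM in romidepsin, 30.5 to 34.6 in afatinib, 10.4 to 11.5 in the combination and 79.1 to 83.1 in DMSO. Of these, JCHAIN, IGHG1 and TNFRSF17 had at most 1 count in any library, and MZB1 and IGKC made up most of the sum: MZB1 averaged 28.1 ± 1.5 CPM in romidepsin, 17.8 ± 1.89 in afatinib, 9.02 ± 0.899 in the combination and 55.8 ± 1.42 in DMSO, and IGKC averaged 2.10 ± 0.272 in romidepsin, 14.2 ± 0.654 in afatinib, 1.63 ± 0.379 in the combination and 24.6 ± 1.94 in DMSO (SD, n = 3 each). The part of these markers in the results was not tested either. In bulk RNA, fewer cells of a type and less RNA per cell cannot be told apart.

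Most members rose with romidepsin, and in the combination more rose than fell and several of the largest changes of the set appeared. With afatinib more members fell than rose. That order did not hold with library size as the scaling, nor without the 4 libraries with keratin reads. With romidepsin against DMSO, 27 of 43 tested members rose and 8 fell, beside 31.1% higher and 31.5% lower, 62.6% in all, among all tested genes (edgeR quasi-likelihood test, adjusted p below 0.05 over 16208 genes). Members lay at a median log2 fold change of 0.41, beside -0.00 over all tested genes. Without the 4 libraries with keratin reads, that median was 0.41, beside 0.04 over all tested genes. The members that rose at least 2-fold with romidepsin were ERO1B, CRELD2, SELENOS, CREB3L2, SEC24D and WFS1. These were 6 of 43, close to the share of 13.3% among all tested genes, and none fell by as much, beside 10.9%.

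Afatinib alone gave 9 members higher and 16 lower than DMSO, beside 22% and 23.3% of all tested genes, 45.4% in all, and the median log2 fold change was -0.11, beside 0.00 over all tested genes. Scaled by library size alone, the comparison gave 12 higher and 10 lower members, beside 28.4% and 17.3% of all tested genes. That scaling moved the median of all tested genes to 0.10 and raised the share of calls that were higher to 62.2%, against 48.6%. With the 4 keratin-read libraries left out, 7 members rose and 7 fell, so the count of lower members was less stable than the count of higher ones. XBP1 alone rose at least 2-fold, beside 6.36% of all tested genes, and no member fell by as much, beside 2.54%.

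The combination against DMSO raised 23 members and lowered 14, beside 37.2% and 37.1% of all tested genes, 74.3% in all, at a median log2 fold change of 0.70, beside -0.01 over all tested genes. After leaving out the 4 keratin-read libraries, that median was 0.75, beside 0.08 over all tested genes. At least 2-fold higher were 9 of 43 tested members, close to the share of 21.1% among all tested genes: HERPUD1, ERN1, ERO1B, SELENOS, CRELD2, SYVN1, WFS1, CALR and DNAJC3. ATF6B was at least 2-fold lower, beside 18.3%. Set against romidepsin, the combination had 16 members higher and 10 lower, beside 25.1% and 29.2% of all tested genes, 54.3% in all. The median log2 fold change of the members was 0.05, beside -0.03 over all tested genes. Without the 4 libraries with keratin reads it was 0.10, beside 0.005. HERPUD1 and ERN1 were at least 2-fold higher in it than with romidepsin, beside 7.98% of all tested genes, and EDEM1 was at least 2-fold lower, beside 4.8%. Set against afatinib, the combination had 27 members higher and 10 lower, beside 33.4% and 35.8%, 69.2% in all. The median of the members was 0.61, beside -0.02 over all tested genes. Without the 4 libraries with keratin reads it was 0.67, beside 0.02. Here 12 members were at least 2-fold higher, beside 16.3% of all tested genes, with HERPUD1, ERO1B and ERN1 leading, and XBP1, EDEM1 and ATF6B were at least 2-fold lower, beside 15.8%. The 3 comparisons with DMSO share their DMSO libraries, so each is given by its own values.

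**Figure D1:**
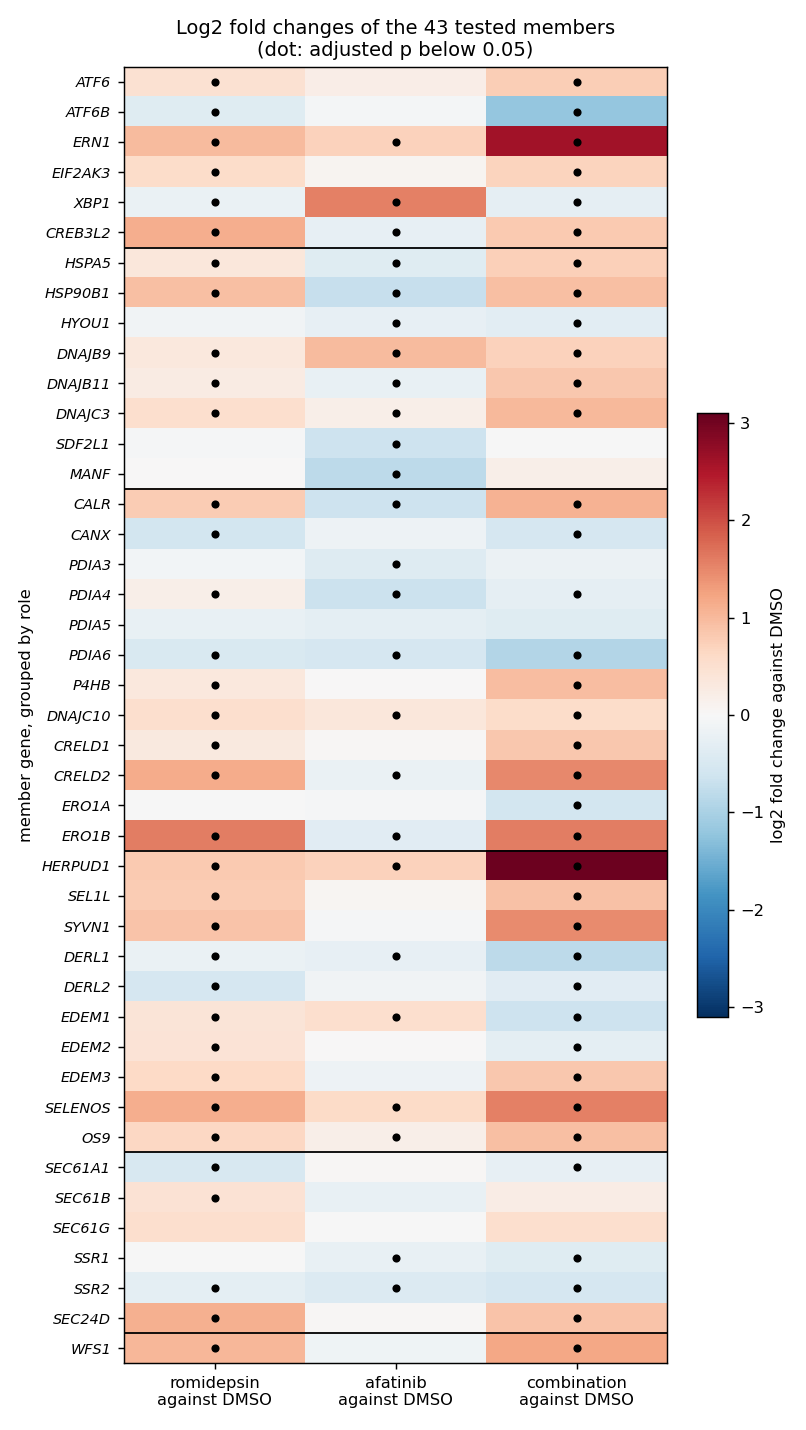
Log2 fold changes (colour) of the 43 tested members in romidepsin, afatinib and the combination, each against DMSO, with members grouped by role from the sensors at the top to WFS1 at the bottom and a dot where the adjusted p was below 0.05. HERPUD1 and ERN1 in the combination are the darkest cells, at 3.03 and 2.60, XBP1 is the darkest with afatinib, at 1.57, and most chaperones are red with romidepsin and blue with afatinib.

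The DNA before the start of these genes was read to see which of them carry the letters of the ER stress response element, the motif through which ATF6 and XBP1 are known to act. Sequences come from RefSeq (GRCh38.p14), 250 bases before to 50 after each annotated start, and 40 of the 44 members matched, with 49 starts. PDIA3, DERL1, DERL3 and SEC24D had no entry. The element ERSE was searched as CCAAT, 9 bases of any kind and CCACG, and ERSE-II as ATTGG, 1 base of any kind and CCACG, on both strands; the 2 do not overlap each other in these promoters. ERSE was found in 8 of 40 members (20%) and in 0.0916% of 27305 genes, or 0.0769% of 35116 promoters. ERSE-II was found in 3 of 40 members (7.5%) and in 0.0696% of genes, or 0.0541% of promoters. The shorter parts are common, since CCAAT alone stood in 34.6% of all promoters and CCACG in 38.1%. The unfolded protein response element UPRE (TGACG followed directly by TGG) was found in 0.927% of genes, or 0.729% of promoters. Among the members it was found in 2, DNAJC10 and HYOU1, and in HYOU1 it overlaps the far copy of ERSE-II. The element CARE, bound by ATF4 together with C/EBP factors (TGATG followed directly by CAA), was found in 1.08% of genes, or 0.866% of promoters. Among the members it was found in HERPUD1 alone. Only exact matches were searched, so copies of an element that differ by 1 letter or more are not counted, and a member may hold such copies. A match describes the letters of the window and does not show binding.

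Shown whole are the 250 bases before the start of 4 members that carry an element and went different ways: HSPA5 and CALR, higher with romidepsin and lower with afatinib, XBP1, higher with afatinib, and HERPUD1, higher with both. Capitals mark exact matches of ERSE, or of ERSE-II in HERPUD1, and near matches are left in small letters. In HERPUD1, capitals also mark CARE, which stands before ERSE-II. CARE of HERPUD1 and ERSE of CALR lie on the strand opposite to the gene, so their letters appear reversed and complemented.
HSPA5 (chr9:125241344-125241593, minus strand): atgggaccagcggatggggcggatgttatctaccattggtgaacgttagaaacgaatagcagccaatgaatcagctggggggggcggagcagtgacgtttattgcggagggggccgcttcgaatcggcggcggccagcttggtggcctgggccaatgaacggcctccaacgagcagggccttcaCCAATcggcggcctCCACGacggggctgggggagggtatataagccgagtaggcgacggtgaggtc
XBP1 (chr22:28800570-28800819, minus strand): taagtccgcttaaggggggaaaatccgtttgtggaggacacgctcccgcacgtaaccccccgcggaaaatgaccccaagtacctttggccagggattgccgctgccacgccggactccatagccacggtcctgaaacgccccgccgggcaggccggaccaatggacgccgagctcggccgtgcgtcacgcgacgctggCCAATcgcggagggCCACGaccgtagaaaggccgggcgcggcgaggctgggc
HERPUD1 (chr16:56931892-56932141, plus strand): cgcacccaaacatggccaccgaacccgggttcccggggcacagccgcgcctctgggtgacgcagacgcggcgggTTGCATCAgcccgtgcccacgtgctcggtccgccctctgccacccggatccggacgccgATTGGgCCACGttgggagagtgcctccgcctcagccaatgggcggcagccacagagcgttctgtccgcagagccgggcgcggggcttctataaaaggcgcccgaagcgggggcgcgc
CALR (chr19:12938359-12938608, plus strand): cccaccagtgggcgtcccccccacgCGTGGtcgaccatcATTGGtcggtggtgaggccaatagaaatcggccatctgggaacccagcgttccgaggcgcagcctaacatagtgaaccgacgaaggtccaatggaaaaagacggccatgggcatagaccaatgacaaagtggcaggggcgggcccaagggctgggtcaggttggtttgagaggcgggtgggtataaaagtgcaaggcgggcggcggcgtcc

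The other members with an element are shown by the element alone, read along its own strand, so that the 9 bases between its ends can be compared.
PDIA6 (chr2:10812853-10812871): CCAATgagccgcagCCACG
CANX (chr5:179698778-179698796): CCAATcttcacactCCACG
HSP90B1, far copy (chr12:103930216-103930234): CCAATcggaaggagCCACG
HSP90B1, near copy (chr12:103930321-103930339): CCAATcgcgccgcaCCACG
CRELD2 (chr22:49918554-49918572): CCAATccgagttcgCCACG
ERO1B (chr1:236282183-236282201): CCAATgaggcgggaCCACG
HYOU1, far copy (chr11:119057380-119057390): ATTGGaCCACG
HYOU1, near copy (chr11:119057274-119057284): ATTGGaCCACG
SDF2L1 (chr22:21642114-21642124): ATTGGtCCACG

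The middle of ERSE held 55.6% G and C in CALR to 88.9% in HSPA5, XBP1 and the near copy of HSP90B1, and 44.4% in CANX. The 250 bases before the start were rich in G and C as well. They held 61.6% in CALR, 62% in HSPA5, 64.8% in HSP90B1, 67.6% in XBP1, 74% in CRELD2 and 74.8% in ERO1B. The middle of ERSE lay below this share in CALR and CRELD2 (66.7%) and above it in HSPA5, XBP1, HSP90B1 and ERO1B. Its first base lay 52 bases before the start in XBP1, 66 in HSPA5, 80 in CRELD2, 86 in PDIA6, 89 and 194 in HSP90B1, 225 in CALR and 243 in ERO1B. Members with the same element did not move alike. Of the 8 with ERSE, 5 were higher and 3 lower with romidepsin (CANX, PDIA6 and XBP1), 1 was higher and 6 lower with afatinib, and 5 were higher and 3 lower in the combination (again CANX, PDIA6 and XBP1), each against DMSO. When the 4 libraries with keratin reads were left out, the counts were 5 and 2 with romidepsin, 1 and 4 with afatinib, and 5 and 2 in the combination. These counts have no test of their own and are read beside the shares of all tested genes given above. Of the 3 with ERSE-II, HERPUD1 rose in all 3 comparisons, SDF2L1 fell with afatinib, and HYOU1 fell with afatinib and with the combination, where both HYOU1 calls were lost without the 4 libraries with keratin reads.

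**Figure D2:**
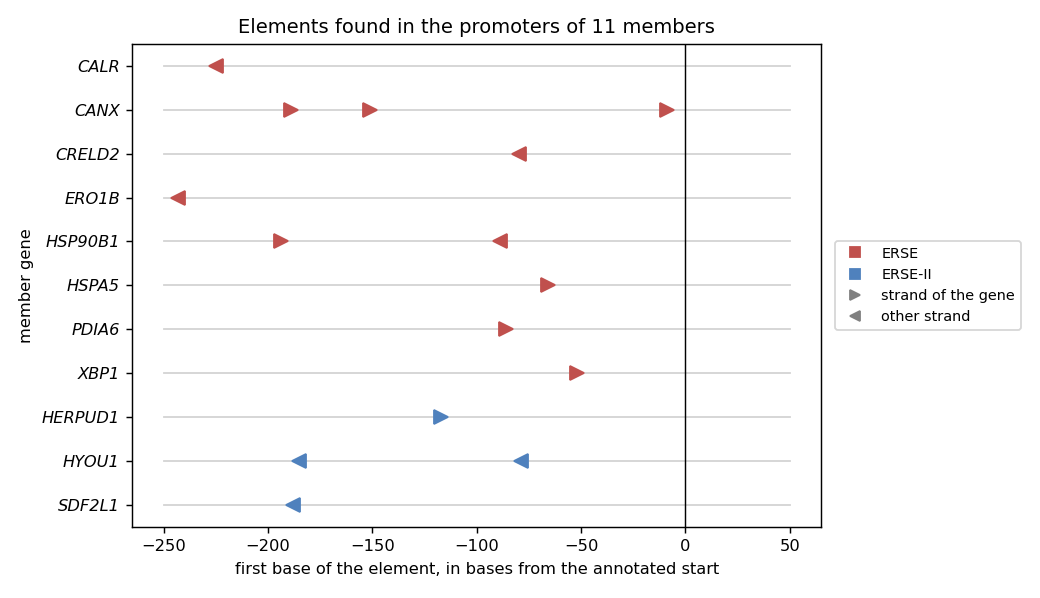
Distance of the first base of ERSE (red) and ERSE-II (blue) from the annotated start, in bases, for the 11 members that carry one, with the point of the marker showing the strand. The single CANX element is drawn 3 times because CANX has 3 annotated starts, at which it lies 9, 151 and 189 bases before the start, and the other elements lie 52 to 243 bases before it.

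All 6 members of the group of sensors and their transcription factors were called with romidepsin, 4 up and 2 down, beside 62.6% of all tested genes called, and the same counts were found in the combination, beside 74.3%. Afatinib raised 2 and lowered 1, beside 22% and 23.3%. Without the 4 libraries with keratin reads, 4 were up and none down with romidepsin, 4 up and 1 down in the combination, and 2 up and none down with afatinib. ERN1 (chr17:64039142-64130819, GRCh38), which encodes IRE1, had 82.8, 88.2 and 87.1 CPM in romidepsin, 68.9, 69.8 and 73.1 in afatinib, 265, 267 and 258 in the combination, and 44.6, 40.1 and 45.0 in DMSO. These values are given in the order of replicates 1, 2 and 3, as are all below. All 3 treated groups stood above DMSO, and the combination stood far above the single drugs without overlap. ERN1 rose 1.99-fold with romidepsin (log2 fold change 0.99 with an SE of 0.07, edgeR adjusted p = 1.3e-17), 1.63-fold with afatinib (log2 fold change 0.71 with an SE of 0.07, edgeR adjusted p = 6.03e-12) and 6.08-fold in the combination (log2 fold change 2.60 with an SE of 0.07, edgeR adjusted p = 3.87e-35). On the log2 scale, the rise in the combination was larger than the sum of the single-drug changes (interaction 0.91 with an SE of 0.09, edgeR adjusted p = 5.45e-11).

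XBP1 (chr22:28794555-28800597), the factor whose mRNA IRE1 splices, followed another course. It had 74.8, 71.6 and 72.1 CPM in romidepsin, 246, 253 and 243 in afatinib, 71.8, 68.8 and 65.7 in the combination, and 81.9, 89.5 and 79.5 in DMSO. Afatinib libraries were the high ones, and the combination libraries overlapped those of romidepsin and lay below DMSO. XBP1 rose 2.96-fold with afatinib (log2 fold change 1.57 with an SE of 0.06, edgeR adjusted p = 6.07e-26), and in the combination it was 3.60-fold lower than with afatinib (log2 fold change -1.85 with an SE of 0.06, edgeR adjusted p = 7.84e-30). The interaction was among the most negative of the set (interaction -1.65 with an SE of 0.09, edgeR adjusted p = 1.74e-19). The small decreases against DMSO, with a log2 fold change of -0.20 for romidepsin and -0.28 for the combination, were not past the threshold without the 4 libraries with keratin reads (-0.08, edgeR adjusted p = 0.519, and -0.17, edgeR adjusted p = 0.149). The romidepsin call was also lost without DMSO replicate 2 (-0.15, edgeR adjusted p = 0.0772) and when only the romidepsin and DMSO libraries entered the fit (-0.16, edgeR adjusted p = 0.0655).

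ATF6 and its paralogue ATF6B, both membrane-bound factors that are cut in the Golgi, moved apart. ATF6 had 61.1, 61.8 and 53.3 CPM in romidepsin, 47.6, 47.9 and 49.5 in afatinib, 66.8, 81.4 and 66.7 in the combination, and 40.9, 45.6 and 40.2 in DMSO. It rose with romidepsin (log2 fold change 0.47 with an SE of 0.08, edgeR adjusted p = 3.72e-06) and in the combination (log2 fold change 0.77 with an SE of 0.08, edgeR adjusted p = 1.54e-11), and the afatinib libraries, although above all DMSO libraries, gave a difference that was not called (log2 fold change 0.20 with an SE of 0.09, edgeR adjusted p = 0.0561). ATF6B had 13.3, 12.4 and 12.4 CPM in romidepsin, 15.8, 18.2 and 13.9 in afatinib, 7.57, 6.57 and 7.64 in the combination, and 16.1, 19.2 and 14.6 in DMSO. The combination libraries were the low ones and did not overlap any other group. ATF6B was 2.29-fold lower in the combination than in DMSO (log2 fold change -1.19 with an SE of 0.14, edgeR adjusted p = 3.22e-10), and its interaction was negative (interaction -0.75 with an SE of 0.20, edgeR adjusted p = 0.00285). Its decrease with romidepsin (log2 fold change -0.38, edgeR adjusted p = 0.0126) was lost without DMSO replicate 2 (-0.27, edgeR adjusted p = 0.113) and without the 4 libraries with keratin reads (-0.16, edgeR adjusted p = 0.518). Of the exonic length of ATF6B, 9.92% is shared with other genes, and reads there cannot be assigned with certainty.

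EIF2AK3, which encodes PERK, had 22.2, 24.4 and 23.0 CPM in romidepsin, 14.4, 17.5 and 17.7 in afatinib, 24.5, 25.7 and 25.5 in the combination, and 17.3, 14.6 and 14.7 in DMSO. The afatinib and DMSO libraries overlapped, and both groups with romidepsin stood above them. EIF2AK3 rose with romidepsin (log2 fold change 0.57 with an SE of 0.11, edgeR adjusted p = 2.52e-05) and in the combination (log2 fold change 0.70 with an SE of 0.11, edgeR adjusted p = 3.07e-07), and the combination did not differ detectably from romidepsin (log2 fold change 0.13 with an SE of 0.11, edgeR adjusted p = 0.326). CREB3L2, a membrane-bound factor of the same mode of activation as ATF6, had 112, 119.6 and 108 CPM in romidepsin, 40.5, 43.5 and 46.4 in afatinib, 93.3, 89.3 and 91.4 in the combination, and 51.4, 51.7 and 52.4 in DMSO. Here too both groups with romidepsin were high and afatinib was low. CREB3L2 rose 2.18-fold with romidepsin (log2 fold change 1.12 with an SE of 0.07, edgeR adjusted p = 3.3e-19) and 1.76-fold in the combination (log2 fold change 0.82 with an SE of 0.07, edgeR adjusted p = 1.34e-14). The decrease with afatinib (log2 fold change -0.25 with an SE of 0.08, edgeR adjusted p = 0.00508) was lost without afatinib replicate 1 (-0.18, edgeR adjusted p = 0.0847), without the 4 libraries with keratin reads (-0.28, edgeR adjusted p = 0.0732) and with library size as the scaling (-0.15, edgeR adjusted p = 0.0973).

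**Figure D3:**
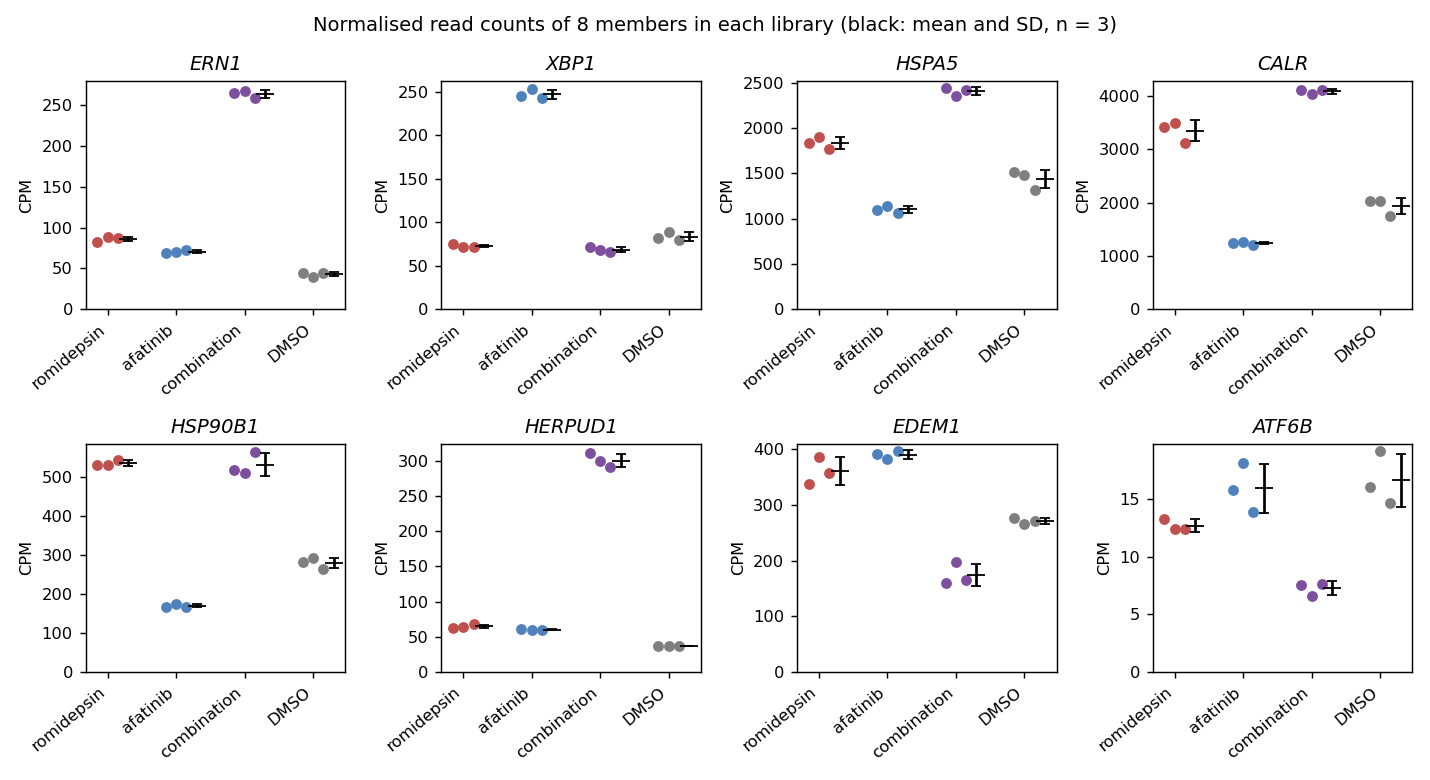
Normalised read counts (CPM) of ERN1, XBP1, HSPA5, CALR, HSP90B1, HERPUD1, EDEM1 and ATF6B in each of the 12 libraries, by group from romidepsin at the left to DMSO at the right, with the mean and SD of 3 libraries in black. ERN1 and HERPUD1 are highest in the combination, XBP1 is highest with afatinib, and EDEM1 and ATF6B are lowest in the combination.

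The HSP70 and HSP90 chaperones with their cochaperones gave 6 of 8 lower and 2 higher with afatinib, beside 23.3% lower and 22% higher among all tested genes. With the 4 keratin-read libraries left out, 3 were lower and 1 higher, since the decreases of HSPA5, HYOU1 and DNAJB11 and the rise of DNAJC3 (0.26, edgeR adjusted p = 0.105) were lost. With romidepsin 5 rose, none fell and 3 were not called, beside 31.1% and 31.5%, and 3 rose without those libraries. In the combination 5 rose and 1 fell, beside 37.2% and 37.1%, and 6 rose and none fell without them. HSPA5 (chr9:125234853-125241343), which encodes the HSP70 chaperone BiP that holds the sensors inactive, had 1836, 1899 and 1770 CPM in romidepsin, 1096, 1143 and 1065 in afatinib, 2444, 2358 and 2414 in the combination, and 1514, 1479 and 1319 in DMSO. The 4 groups did not overlap, with the combination highest and afatinib lowest. HSPA5 was 1.67-fold higher in the combination than in DMSO (log2 fold change 0.74 with an SE of 0.05, edgeR adjusted p = 4.25e-17) and 1.28-fold higher with romidepsin (log2 fold change 0.35 with an SE of 0.05, edgeR adjusted p = 1.86e-07). It was 1.30-fold lower with afatinib than in DMSO (log2 fold change -0.38 with an SE of 0.05, edgeR adjusted p = 7.6e-08), a call that was lost without the 4 libraries with keratin reads (-0.20, edgeR adjusted p = 0.0631). The interaction was positive (interaction 0.78 with an SE of 0.08, edgeR adjusted p = 2.36e-11).

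HSP90B1, which encodes the HSP90 chaperone GRP94, had 530.2, 529.7 and 542 CPM in romidepsin, 167, 175 and 167 in afatinib, 517, 509 and 564 in the combination, and 281, 291 and 265 in DMSO. Romidepsin and the combination overlapped and stood above DMSO, and afatinib stood below it. HSP90B1 rose 1.92-fold with romidepsin (log2 fold change 0.94 with an SE of 0.05, edgeR adjusted p = 1.67e-20) and 1.90-fold in the combination (log2 fold change 0.93 with an SE of 0.05, edgeR adjusted p = 1.05e-20), and fell with afatinib (log2 fold change -0.72 with an SE of 0.06, edgeR adjusted p = 4.24e-15). Added to afatinib, romidepsin gave a 3.12-fold higher level (log2 fold change 1.64 with an SE of 0.06, edgeR adjusted p = 6.34e-30). Of its exonic length, 16.7% is shared with other genes, the most abundant of them on the other strand, which these counts do not separate.

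MANF, a protein of the ER lumen that binds BiP, had 34.9, 31.9 and 32.6 CPM in romidepsin, 19.9, 18.8 and 17 in afatinib, 36.8, 33.5 and 41.1 in the combination, and 32.4, 35.3 and 30.5 in DMSO. Afatinib libraries were low and the other 3 groups overlapped. MANF fell 1.76-fold with afatinib (log2 fold change -0.82 with an SE of 0.10, edgeR adjusted p = 4.11e-09), and in the combination it was 2.00-fold higher than with afatinib (log2 fold change 1.00 with an SE of 0.10, edgeR adjusted p = 1.81e-12). Against DMSO the combination gave a log2 fold change of 0.18 (edgeR adjusted p = 0.0761). That difference was not called, but it passed with DESeq2 size factors (0.22, edgeR adjusted p = 0.0365), with library size as the scaling (0.29, edgeR adjusted p = 0.00585), without the 4 libraries with keratin reads (0.36, edgeR adjusted p = 0.0315) and without any of afatinib replicates 1 and 3 and combination replicate 2 (0.23 to 0.25, edgeR adjusted p from 0.0236 to 0.0298). SDF2L1, a lumenal partner of BiP cochaperones, had 80.9, 71.4 and 65.7 CPM in romidepsin, 43.7, 51.2 and 48.5 in afatinib, 77.7, 67.8 and 76.7 in the combination, and 77.8, 82.6 and 65.3 in DMSO. Its groups overlapped except for afatinib, which was low. It fell with afatinib (log2 fold change -0.65 with an SE of 0.09, edgeR adjusted p = 1.61e-08), and neither romidepsin (log2 fold change -0.05 with an SE of 0.08, edgeR adjusted p = 0.638) nor the combination (log2 fold change -0.02 with an SE of 0.08, edgeR adjusted p = 0.824) differed detectably from DMSO.

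DNAJB9, a cochaperone of BiP also called ERdj4 and a known XBP1 target, was one of the 2 chaperone genes that rose with afatinib. It had 17.1, 18 and 16.8 CPM in romidepsin, 28.7, 26.9 and 25.5 in afatinib, 18.6, 28.0 and 21.1 in the combination, and 14.1, 11.6 and 15.3 in DMSO. Combination replicate 2 stood apart from the other libraries of its group. DNAJB9 rose 1.97-fold with afatinib (log2 fold change 0.97 with an SE of 0.13, edgeR adjusted p = 9.54e-09) and 1.65-fold in the combination (log2 fold change 0.72 with an SE of 0.13, edgeR adjusted p = 1.98e-06). Its rise with romidepsin (log2 fold change 0.33, edgeR adjusted p = 0.0289) was lost without DMSO replicate 2 (0.23, edgeR adjusted p = 0.16), without romidepsin replicate 2 (0.30, edgeR adjusted p = 0.0708) and without the 4 libraries with keratin reads (0.22, edgeR adjusted p = 0.319). Its interaction was negative (interaction -0.58 with an SE of 0.18, edgeR adjusted p = 0.00949) and was lost without those 4 libraries (-0.36, edgeR adjusted p = 0.279).

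The cochaperones DNAJB11 and DNAJC3, which hand clients to BiP, were highest in the combination. DNAJC3 averaged 120 ± 9.51 CPM in romidepsin, 94.2 ± 6.95 in afatinib, 167 ± 18 in the combination and 83.5 ± 3.68 in DMSO (SD, n = 3 each). It rose 2.01-fold in the combination (log2 fold change 1.00 with an SE of 0.07, edgeR adjusted p = 1.71e-17). DNAJB11 averaged 41.2 ± 3.38 CPM in romidepsin, 29.9 ± 2.74 in afatinib, 62.5 ± 0.643 in the combination and 34.8 ± 1.32 in DMSO, and rose 1.80-fold in the combination (log2 fold change 0.85 with an SE of 0.08, edgeR adjusted p = 9.42e-13). Its decrease with afatinib (log2 fold change -0.22) was lost with library size as the scaling (-0.12, edgeR adjusted p = 0.29) and without the 4 libraries with keratin reads (-0.16, edgeR adjusted p = 0.447), and its rise with romidepsin (0.25) was lost without the same libraries (0.30, edgeR adjusted p = 0.0532). Other genes cover 23.2% of its exonic length. HYOU1, a large HSP70-like exchange factor of BiP, went the other way and fell in the combination (log2 fold change -0.32 with an SE of 0.06, edgeR adjusted p = 3.84e-06), a call lost without the 4 libraries with keratin reads (-0.16, edgeR adjusted p = 0.131). So was its decrease with afatinib (log2 fold change -0.26, and -0.11 with edgeR adjusted p = 0.433 without those libraries).

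Among the lectin chaperones and disulfide enzymes, 12 members, romidepsin raised 7 and lowered 2, afatinib raised 1 and lowered 6, and the combination raised 6 and lowered 4. Beside them stand the shares of all tested genes, 31.1% higher and 31.5% lower with romidepsin, 22% and 23.3% with afatinib, and 37.2% and 37.1% in the combination. After leaving out the 4 keratin-read libraries, the counts were 6 and 2 with romidepsin, 1 and 4 with afatinib, and 6 and 3 in the combination. CALR (chr19:12938578-12944489), which encodes calreticulin, had the highest level of all members per length. It had 3422, 3486 and 3119 CPM in romidepsin, 1246, 1265 and 1213 in afatinib, 4115, 4032 and 4109 in the combination, and 2030, 2024 and 1757 in DMSO. As for HSPA5, the groups did not overlap, with the combination highest and afatinib lowest. CALR was 2.11-fold higher in the combination than in DMSO (log2 fold change 1.08 with an SE of 0.06, edgeR adjusted p = 1.82e-22), 1.73-fold higher with romidepsin (log2 fold change 0.79 with an SE of 0.06, edgeR adjusted p = 4.09e-17) and 1.56-fold lower with afatinib (log2 fold change -0.64 with an SE of 0.06, edgeR adjusted p = 2.11e-13). Its interaction was positive (interaction 0.93 with an SE of 0.08, edgeR adjusted p = 3.19e-13).

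CANX, which encodes calnexin, the membrane-bound counterpart of calreticulin, moved in the opposite direction. It had 22.5, 26.8 and 22.7 CPM in romidepsin, 30.0, 35.9 and 29.3 in afatinib, 25.4, 23.8 and 24.8 in the combination, and 34.1, 39.1 and 33.5 in DMSO. Romidepsin and combination libraries were low and overlapped each other. CANX fell 1.49-fold with romidepsin (log2 fold change -0.57 with an SE of 0.10, edgeR adjusted p = 2.9e-06) and 1.44-fold in the combination (log2 fold change -0.53 with an SE of 0.10, edgeR adjusted p = 6.81e-06), and the difference with afatinib was not called (log2 fold change -0.16 with an SE of 0.10, edgeR adjusted p = 0.173). Both genes carry ERSE, as printed above.

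The disulfide isomerases split as well. P4HB, which encodes the classical protein disulfide isomerase, had 624, 561 and 584 CPM in romidepsin, 458, 499.7 and 457 in afatinib, 926, 823 and 951 in the combination, and 454, 489.8 and 457 in DMSO. Afatinib and DMSO overlapped, romidepsin was higher and the combination highest. P4HB rose 1.93-fold in the combination (log2 fold change 0.95 with an SE of 0.06, edgeR adjusted p = 3.24e-20) and was 1.52-fold higher than with romidepsin alone (log2 fold change 0.61 with an SE of 0.06, edgeR adjusted p = 6.2e-13). PDIA4, another isomerase of the lumen, had 152, 156 and 136 CPM in romidepsin, 88.3, 79.6 and 76.4 in afatinib, 108, 105 and 108 in the combination, and 135, 136 and 119 in DMSO. Its low group was afatinib, with the combination next. PDIA4 fell 1.60-fold with afatinib (log2 fold change -0.68 with an SE of 0.07, edgeR adjusted p = 1.42e-11). Its smaller rise with romidepsin (log2 fold change 0.19 with an SE of 0.07, edgeR adjusted p = 0.0131) was lost without DMSO replicate 3 (0.12, edgeR adjusted p = 0.127) or romidepsin replicate 2 (0.15, edgeR adjusted p = 0.0689), and its decrease in the combination (log2 fold change -0.28 with an SE of 0.07, edgeR adjusted p = 0.000193) was lost without the 4 libraries with keratin reads (-0.09, edgeR adjusted p = 0.468).

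PDIA6, an isomerase that also acts on IRE1, had 8.16, 8.02 and 6.85 CPM in romidepsin, 5.99, 7.76 and 8.51 in afatinib, 4.78, 6.04 and 6.26 in the combination, and 9.51, 10.8 and 11.7 in DMSO. Every treated library lay below every DMSO library. PDIA6 fell 1.86-fold in the combination (log2 fold change -0.90 with an SE of 0.17, edgeR adjusted p = 6.95e-06). The smaller decreases with romidepsin (log2 fold change -0.48, edgeR adjusted p = 0.011) and afatinib (log2 fold change -0.52, edgeR adjusted p = 0.00903) were each lost when 1 library was left out. For romidepsin these were DMSO replicate 3 (-0.40, edgeR adjusted p = 0.0535) and romidepsin replicate 3 (-0.39, edgeR adjusted p = 0.0692), and for afatinib it was afatinib replicate 1 (-0.37, edgeR adjusted p = 0.101). Other genes share 25.2% of its exonic length, so its level is uncertain.

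CRELD2, a lumenal protein induced by ER stress, had 451, 428 and 458 CPM in romidepsin, 179.6, 167 and 169.8 in afatinib, 530.3, 543 and 610.2 in the combination, and 177, 206 and 217 in DMSO. Both groups with romidepsin stood well above afatinib and DMSO, which overlapped. CRELD2 rose 2.23-fold with romidepsin (log2 fold change 1.16 with an SE of 0.06, edgeR adjusted p = 1.15e-21) and 2.81-fold in the combination (log2 fold change 1.49 with an SE of 0.06, edgeR adjusted p = 2.45e-26). Its small decrease with afatinib (log2 fold change -0.22, edgeR adjusted p = 0.00449) was lost without DMSO replicate 3 (-0.16, edgeR adjusted p = 0.0524) and with library size as the scaling (-0.12, edgeR adjusted p = 0.134).

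The oxidases ERO1A and ERO1B, which recharge the isomerases, differed. ERO1B had 34.5, 40.4 and 29.7 CPM in romidepsin, 9.58, 9.28 and 8.43 in afatinib, 32.5, 36.5 and 35.0 in the combination, and 12.5, 9.59 and 12.2 in DMSO. The groups with romidepsin were the high ones and overlapped each other. ERO1B rose 3.02-fold with romidepsin (log2 fold change 1.59 with an SE of 0.12, edgeR adjusted p = 2.44e-16) and 3.02-fold in the combination (log2 fold change 1.60 with an SE of 0.12, edgeR adjusted p = 7.88e-17). Its decrease with afatinib (log2 fold change -0.34, edgeR adjusted p = 0.0457) was lost when any of DMSO replicates 1 or 3 or of the afatinib libraries was left out, with edgeR adjusted p from 0.0681 to 0.221. The same call was lost with DESeq2 (-0.34, DESeq2 adjusted p = 0.0556) and with library size as the scaling (-0.24, edgeR adjusted p = 0.165). So it was with only the afatinib and DMSO libraries in the fit (-0.33, edgeR adjusted p = 0.0692) and without the 4 libraries with keratin reads (-0.33). ERO1A averaged 116 ± 10.1 CPM in romidepsin, 113 ± 6.16 in afatinib, 78.8 ± 8.63 in the combination and 116 ± 1.34 in DMSO (SD, n = 3 each). Of the comparisons with DMSO, it was called in the combination, where it fell (log2 fold change -0.56 with an SE of 0.07, edgeR adjusted p = 1.63e-09), and its interaction was negative (interaction -0.51 with an SE of 0.10, edgeR adjusted p = 7.39e-05).

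Of the remaining members of this group, DNAJC10, a reductase of the lumen, rose in all 3 comparisons with DMSO, with log2 fold changes of 0.52 for romidepsin, 0.34 for afatinib and 0.56 for the combination. CRELD1 rose with romidepsin (0.29) and in the combination (0.85), and the romidepsin call was lost without the 4 libraries with keratin reads (0.31, edgeR adjusted p = 0.0849). PDIA3, the isomerase that works with the lectin chaperones, fell with afatinib (log2 fold change -0.39 with an SE of 0.09, edgeR adjusted p = 0.00024), a call lost without the same libraries (-0.30, edgeR adjusted p = 0.111). PDIA5 passed no test, at 1.24 ± 0.195 CPM in romidepsin, 1.21 ± 0.419 in afatinib, 1.12 ± 0.290 in the combination and 1.45 ± 0.556 in DMSO, where differences of the size seen here could not be detected.

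In the degradation group, all 10 tested members of 11 were called with romidepsin (8 up, 2 down), beside 62.6% of all tested genes, and in the combination (6 up, 4 down), beside 74.3%. With afatinib 4 rose and 1 fell, beside 22% and 23.3%. When the 4 libraries with keratin reads were left out, the counts were 8 up and 1 down with romidepsin, 3 up and none down with afatinib, and 6 up and 3 down in the combination. HERPUD1 (chr16:56932142-56944864), a membrane protein that assembles the degradation complex, showed the largest rise of the set. It had 63.0, 63.7 and 67.5 CPM in romidepsin, 60.4, 59.5 and 60.2 in afatinib, 310.1, 299 and 291 in the combination, and 36.9, 36.5 and 36.4 in DMSO. Both single drugs stood above DMSO, and the combination stood far above both. HERPUD1 rose 1.77-fold with romidepsin (log2 fold change 0.82 with an SE of 0.07, edgeR adjusted p = 1.51e-14), 1.64-fold with afatinib (log2 fold change 0.71 with an SE of 0.07, edgeR adjusted p = 6.17e-12) and 8.18-fold in the combination (log2 fold change 3.03 with an SE of 0.07, edgeR adjusted p = 9.94e-38). The combination exceeded the sum of the single-drug changes on the log2 scale (interaction 1.5 with an SE of 0.09, edgeR adjusted p = 1.05e-17).

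EDEM1 (chr3:5187646-5219958), a lectin that picks glycoproteins for degradation, did the reverse. It had 338, 387 and 358 CPM in romidepsin, 391, 382 and 397 in afatinib, 160.2, 197 and 166 in the combination, and 277, 266 and 272 in DMSO. Each single drug stood above DMSO and the combination stood below it, with no overlap. EDEM1 rose 1.33-fold with romidepsin (log2 fold change 0.41 with an SE of 0.06, edgeR adjusted p = 8.41e-08) and 1.44-fold with afatinib (log2 fold change 0.52 with an SE of 0.06, edgeR adjusted p = 5.51e-10), and was 1.56-fold lower in the combination than in DMSO (log2 fold change -0.64 with an SE of 0.06, edgeR adjusted p = 4.63e-13). Its interaction was negative (interaction -1.57 with an SE of 0.09, edgeR adjusted p = 1.74e-19). EDEM2, a member of the same family, had 24.4, 23.6 and 20.8 CPM in romidepsin, 17.4, 18 and 16.3 in afatinib, 15.6, 13.1 and 12.8 in the combination, and 18.2, 18.1 and 15.2 in DMSO. It rose with romidepsin (log2 fold change 0.42 with an SE of 0.12, edgeR adjusted p = 0.00183) and was 1.66-fold lower in the combination than with romidepsin (log2 fold change -0.73 with an SE of 0.12, edgeR adjusted p = 9.87e-07). Its decrease against DMSO in the combination (log2 fold change -0.31 with an SE of 0.12, edgeR adjusted p = 0.0203) was lost with DESeq2 in place of edgeR (-0.28, adjusted p = 0.0544), without any of DMSO replicates 1 and 2, afatinib replicates 1 and 3 and combination replicates 2 and 3 (-0.21 to -0.29, edgeR adjusted p from 0.0552 to 0.172) and without the 4 libraries with keratin reads (-0.16, edgeR adjusted p = 0.482). This decrease of EDEM2 was also lost with library size as the scaling (-0.21, edgeR adjusted p = 0.122). It was lost too with only the combination and DMSO libraries in the fit (-0.27, edgeR adjusted p = 0.0671). EDEM3, in contrast, rose with romidepsin (0.61) and in the combination (0.82), so the family did not move as one in the combination.

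SELENOS, a selenoprotein of the degradation complex, had 28.5, 31.6 and 24.7 CPM in romidepsin, 21.5, 17.7 and 19.3 in afatinib, 37.5, 35.6 and 40.4 in the combination, and 13.8, 12.1 and 12.6 in DMSO. All 3 treated groups were above DMSO and did not overlap it. SELENOS rose 2.19-fold with romidepsin (log2 fold change 1.13 with an SE of 0.11, edgeR adjusted p = 4.1e-12), 1.51-fold with afatinib (log2 fold change 0.60 with an SE of 0.12, edgeR adjusted p = 4.36e-05) and 2.94-fold in the combination (log2 fold change 1.56 with an SE of 0.11, edgeR adjusted p = 1.42e-17). Its interaction was not called (interaction -0.17 with an SE of 0.16, edgeR adjusted p = 0.446). SYVN1, the ubiquitin ligase HRD1, and SEL1L, its adaptor, both rose with romidepsin and in the combination. SYVN1 averaged 104 ± 3.05 CPM in romidepsin, 55.4 ± 5.68 in afatinib, 157 ± 7.66 in the combination and 56.9 ± 2.97 in DMSO, and rose 2.76-fold in the combination (log2 fold change 1.47 with an SE of 0.07, edgeR adjusted p = 4.58e-24). Of the exonic length of SYVN1, 9.99% is shared with other genes. The most abundant of them, FAU on the same strand, averaged 1298 counts, beside 549 to 2109 for SYVN1. SEL1L averaged 425 ± 35.2 CPM in romidepsin, 258 ± 6.75 in afatinib, 463 ± 44.6 in the combination and 245 ± 12.7 in DMSO (SD, n = 3 each). It rose 1.89-fold in the combination (log2 fold change 0.92 with an SE of 0.06, edgeR adjusted p = 2.08e-18). The glycan-reading lectin OS9 rose 1.92-fold in the combination (log2 fold change 0.94 with an SE of 0.07, edgeR adjusted p = 1.37e-17).

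The derlins, membrane proteins of the same export channel, fell instead. DERL1 had 67.8, 77.7 and 70.5 CPM in romidepsin, 67.9, 68.7 and 73.3 in afatinib, 44.2, 49.1 and 48.4 in the combination, and 82.1, 83.5 and 84.1 in DMSO. The combination was low, and both single drugs lay between it and DMSO. DERL1 fell 1.76-fold in the combination (log2 fold change -0.82 with an SE of 0.07, edgeR adjusted p = 4.12e-14). Its smaller decreases with romidepsin (log2 fold change -0.21, edgeR adjusted p = 0.0084) and afatinib (log2 fold change -0.25, edgeR adjusted p = 0.0035) were lost without the 4 libraries with keratin reads (-0.18, edgeR adjusted p = 0.15, and -0.26, edgeR adjusted p = 0.0795), and the first also without romidepsin replicate 1 (-0.17, edgeR adjusted p = 0.0629). The decrease of DERL1 with afatinib was also lost with library size as the scaling (-0.15, edgeR adjusted p = 0.085). DERL2 had 21.9, 23.7 and 22.9 CPM in romidepsin, 29.1, 29.8 and 31.7 in afatinib, 29.5, 28.0 and 20.0 in the combination, and 32.1, 33.1 and 32.6 in DMSO. Combination replicate 3 stood below the others of its group. DERL2 fell with romidepsin (log2 fold change -0.51 with an SE of 0.11, edgeR adjusted p = 4.79e-05). Its decrease in the combination (log2 fold change -0.34 with an SE of 0.10, edgeR adjusted p = 0.00334) was lost without combination replicate 3 (-0.19, edgeR adjusted p = 0.108). Of the exonic length of DERL2, 4.72% is shared with MIS12 on the other strand. MIS12 averaged 1088 counts, beside 207 to 395 for DERL2, and reads in the shared part cannot be assigned with certainty.

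The 6 translocon and export members were split. With romidepsin 2 rose and 2 fell, with afatinib none rose and 2 fell, and in the combination 1 rose and 3 fell, beside the shares of all tested genes given above. Without the 4 libraries with keratin reads, the counts were 2 up and 1 down with romidepsin, 0 up and 0 down with afatinib, and 1 up and 1 down in the combination. SEC61A1, which encodes the pore of the translocon, had 320.4, 343 and 324 CPM in romidepsin, 467, 477 and 474 in afatinib, 398, 385 and 382 in the combination, and 476, 459 and 449.8 in DMSO. Romidepsin was lowest, the combination next, and afatinib overlapped DMSO. SEC61A1 fell 1.40-fold with romidepsin (log2 fold change -0.49 with an SE of 0.05, edgeR adjusted p = 1.6e-11) and less in the combination (log2 fold change -0.25 with an SE of 0.05, edgeR adjusted p = 2.92e-05). The call in the combination was lost without the 4 libraries with keratin reads (-0.16, edgeR adjusted p = 0.0903). SEC61B, a small subunit of the same pore, rose with romidepsin (log2 fold change 0.46 with an SE of 0.11, edgeR adjusted p = 0.000301), while SEC61G passed no test at group means of 1.66 ± 0.0501 CPM in romidepsin, 1.16 ± 0.124 in afatinib, 1.68 ± 0.403 in the combination and 1.14 ± 0.472 in DMSO.

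SSR1 and SSR2, subunits of the translocon-associated complex, fell with afatinib (log2 fold changes -0.23 and -0.42) and in the combination (-0.38 and -0.51). For SSR2, where DMSO replicate 3 (43.9 CPM) lay well below DMSO replicates 1 and 2 (61.5 and 54.6 CPM), the calls against DMSO were all lost without the 4 libraries with keratin reads (log2 fold change 0.02 with romidepsin, -0.03 with afatinib and -0.14 in the combination, edgeR adjusted p from 0.372 to 0.896). The afatinib call of SSR1 was lost in the same way (-0.18, edgeR adjusted p = 0.217). SEC24D, a coat protein of the vesicles that leave the ER, rose 2.13-fold with romidepsin (log2 fold change 1.09 with an SE of 0.13, edgeR adjusted p = 5.17e-10) and 1.84-fold in the combination (log2 fold change 0.88 with an SE of 0.13, edgeR adjusted p = 6.9e-08). WFS1, a membrane protein that restrains ATF6, averaged 77.7 ± 0.786 CPM in romidepsin, 34.5 ± 3.09 in afatinib, 86.7 ± 2.98 in the combination and 38.0 ± 1.57 in DMSO. It rose 2.05-fold with romidepsin (log2 fold change 1.03 with an SE of 0.08, edgeR adjusted p = 1.57e-16) and 2.28-fold in the combination (log2 fold change 1.19 with an SE of 0.08, edgeR adjusted p = 2.61e-19), and the difference with afatinib was not called (log2 fold change -0.14 with an SE of 0.08, edgeR adjusted p = 0.167).

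The design crosses both drugs, and the interaction, by how much the log2 change in the combination exceeded both single-drug log2 changes added up, was called for 25 members: 17 above 0 and 8 below, beside 11.7% and 18.5% of all tested genes, 30.2% in all. The median interaction of the members was 0.20, beside -0.06 over all tested genes. HERPUD1 alone was at least 1 on the log2 scale above 0, beside 2.78% of all tested genes, and XBP1 and EDEM1 were at least 1 below, beside 3.29%. With the 4 keratin-read libraries left out, 11 members were above and 5 below, beside 7.34% and 11.8% of all tested genes, and 9 of the 25 calls were lost: DNAJB9, DNAJC3, PDIA3, DNAJC10, CRELD1, DERL1, EDEM3, SEC61A1 and WFS1. The chaperone group held 6 members above 0 and 1 below, DNAJB9, and 5 above without those libraries. For MANF, SDF2L1, HSPA5, HSP90B1 and CALR the positive interaction went with a decrease with afatinib alone and none in the combination, and the combination lay at or above the level with romidepsin, the one exception being HSP90B1, whose mean in the combination (530 ± 29.7 CPM) was just under that with romidepsin (534 ± 7.13 CPM). For ERN1 and HERPUD1 it went with a rise under each drug.

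**Figure D4:**
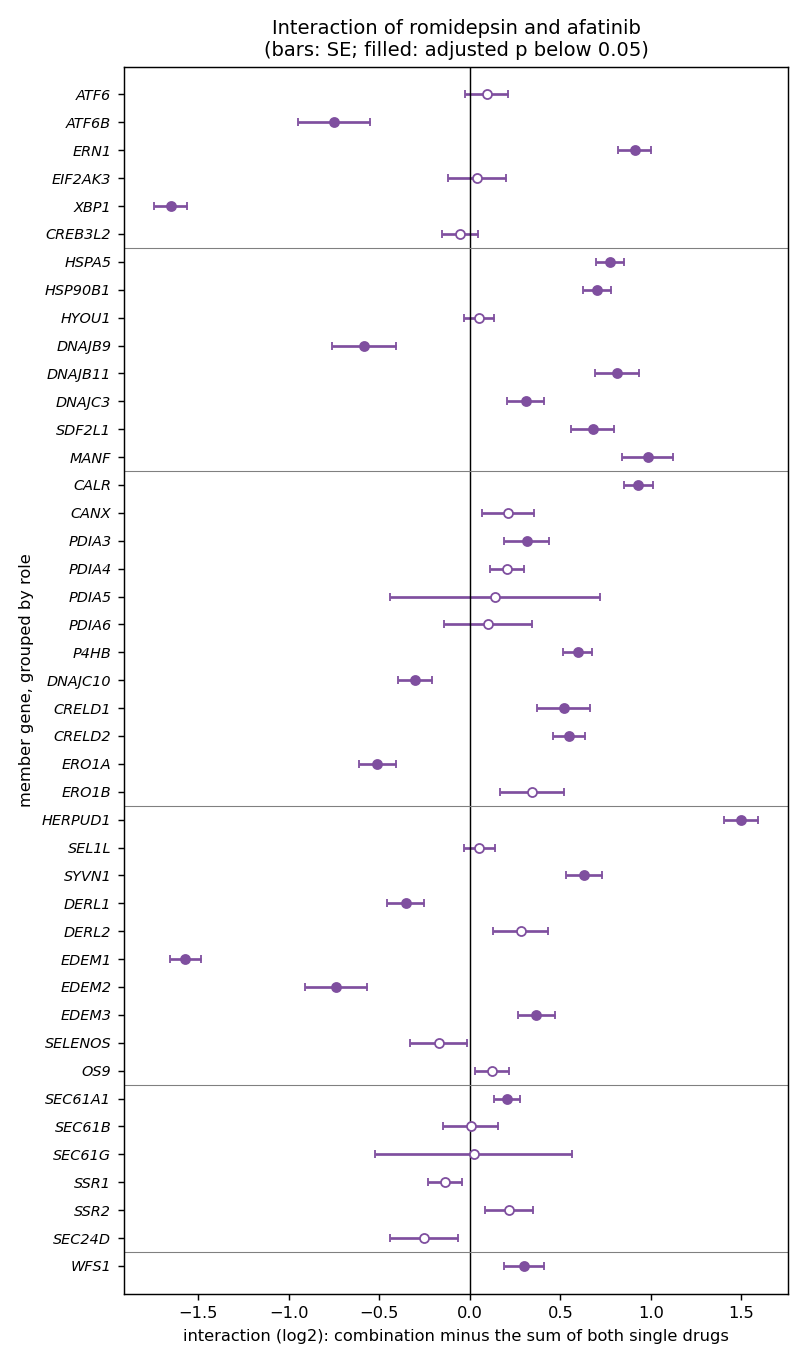
Interaction of romidepsin and afatinib on the log2 scale (points) with its standard error (bars) for the 43 tested members, grouped by role, filled where the adjusted p was below 0.05. HERPUD1 lies farthest to the right, at 1.5, XBP1 and EDEM1 lie farthest to the left, at -1.65 and -1.57, and most filled points of the chaperone group lie right of 0.

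Per kilobase of exon, the members spanned more than 3 powers of 10 in level. In every group CALR was highest, at 1232 ± 72.2 CPM per kb in romidepsin, 457 ± 9.65 in afatinib, 1505 ± 16.9 in the combination and 714 ± 57.5 in DMSO (SD, n = 3 each). HSPA5 was next in every group, at 468 ± 16.4 CPM per kb in romidepsin, 281 ± 9.96 in afatinib, 613 ± 11.1 in the combination and 367 ± 26.4 in DMSO. Below them the order differed by treatment. In romidepsin, HSP90B1 (114 ± 1.52) and P4HB (113 ± 6.08) followed and did not differ beyond their SD. In afatinib, SEC61A1 (102 ± 1.18), P4HB (90.1 ± 4.68) and XBP1 (81.7 ± 1.69) followed. In the combination, P4HB (172 ± 13) was above HSP90B1 (113 ± 6.32) and CRELD2 (109 ± 8.32), which did not differ beyond their SD. In DMSO, SEC61A1 (99.5 ± 2.91) and P4HB (89.3 ± 3.76) followed. HERPUD1, at 7.24 ± 0.0511 CPM per kb in the lower part of the order in DMSO, reached 59.3 ± 1.92 in the combination. The lowest tested members were PDIA5, at 0.356 ± 0.137 CPM per kb in DMSO, and SEC61G, at 0.621 ± 0.256. Levels of different genes are less certain than changes of a gene, since the counting discards pairs by their distance on the genome, and the size of this loss was not measured.

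**Figure D5:**
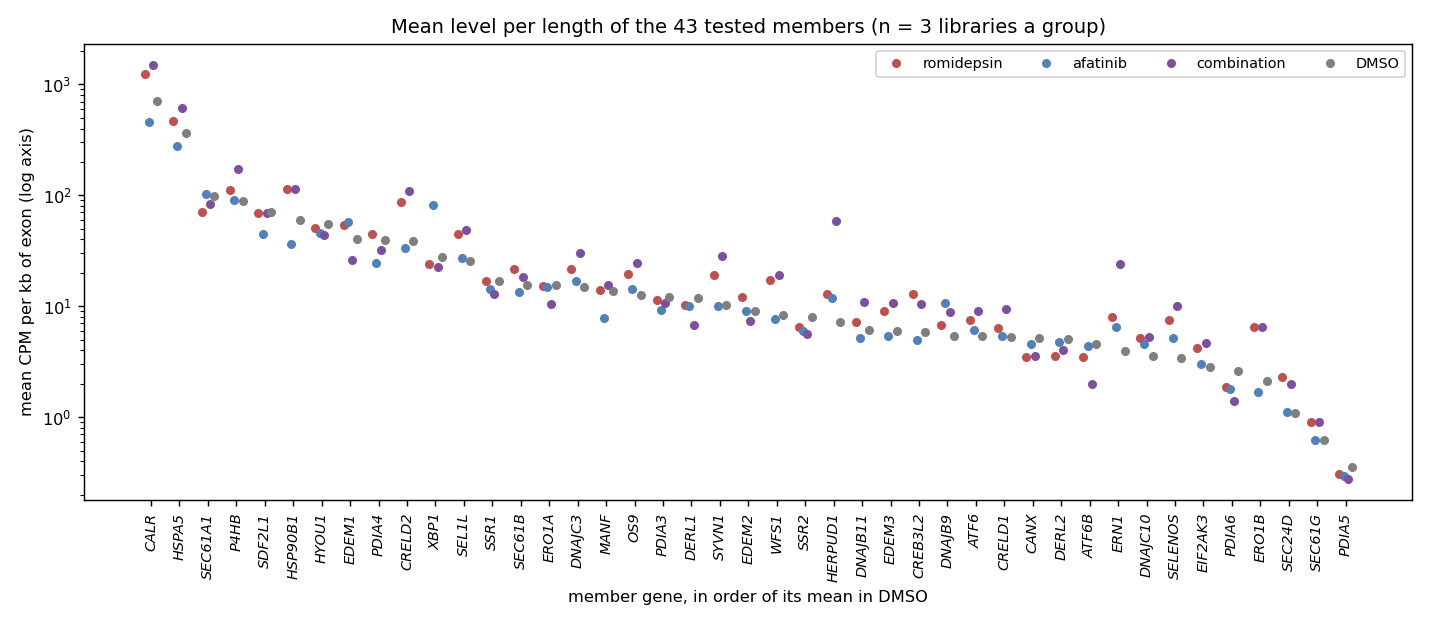
Mean level of the 43 tested members in CPM per kb of exon (log axis), in the order of the DMSO means, with 1 point per group. CALR and HSPA5 stand above the rest in every group, and HERPUD1, ERN1 and XBP1 show 1 group far from the other 3.

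Of 120 further genes of the pathway, 119 were found and 109 tested. Among them 44 rose and 27 fell with romidepsin, 26 rose and 38 fell with afatinib, and 42 rose and 48 fell in the combination, each against DMSO. As shares of the 109 these were 40.4% higher and 24.8% lower with romidepsin, beside 31.1% higher and 31.5% lower among all tested genes, 23.9% higher and 34.9% lower with afatinib, beside 22% and 23.3%, and 38.5% higher and 44% lower in the combination, beside 37.2% and 37.1%. The counts per list below are to be read beside the same shares. Scaled by library size alone, 32 rose and 24 fell with afatinib, beside 28.4% and 17.3% of all tested genes. In the combination 48 rose and 38 fell under that scaling, beside 40.7% and 33.6%. The order of higher and lower genes in these 2 comparisons therefore depended on the scaling. After leaving out the 4 keratin-read libraries, 40 rose and 21 fell with romidepsin, 19 rose and 16 fell with afatinib, and 42 rose and 32 fell in the combination. In the list named for the PERK and ATF4 branch, 9 of 13 tested genes rose with afatinib and none fell. The list had a median log2 fold change of 1.84, beside 0.00 over all tested genes. It also holds EIF2AK1, EIF2AK2 and EIF2AK4, which encode kinases other than PERK. Whether PERK had a part in these rises was not tested. In the combination 10 of the 13 rose and none fell (median 1.09, beside -0.01), and with romidepsin 8 rose and 2 fell (median 0.46, beside -0.00). All 3 pairs of counts were the same without the 4 libraries with keratin reads. CHAC1, an enzyme that degrades glutathione, averaged 9.22 ± 0.6 CPM in romidepsin, 84.6 ± 5.49 in afatinib, 432 ± 30.0 in the combination and 3.55 ± 1.04 in DMSO (SD, n = 3 each), and rose in the combination (log2 fold change 6.95 with an SE of 0.10, edgeR adjusted p = 2.38e-44). The factor gene DDIT3, known as CHOP, averaged 4.99 ± 0.743 CPM in romidepsin, 48.5 ± 2.39 in afatinib, 93.2 ± 1.84 in the combination and 5.47 ± 0.840 in DMSO, and rose there too (log2 fold change 4.10 with an SE of 0.11, edgeR adjusted p = 2.51e-34). ATF3, another factor of this branch, rose with romidepsin (log2 fold change 1.59 with an SE of 0.07, edgeR adjusted p = 2.61e-25). SESN2, a stress-induced regulator of growth signalling, rose with afatinib (log2 fold change 3.62 with an SE of 0.16, edgeR adjusted p = 9.78e-24).

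Of 24 genes of translocation, signal cleavage and glycosylation, 17 were lower and 5 higher in the combination, beside 37.1% and 37.2% of all tested genes, at a median log2 fold change of -0.42, beside -0.01. With afatinib 13 fell and none rose, beside 23.3% and 22%, and with romidepsin 9 fell and 6 rose, beside 31.5% and 31.1%. With library size as the scaling, 9 fell and 1 rose with afatinib, and 15 fell and 7 rose in the combination. When the 4 libraries with keratin reads were left out, 12 were lower and 4 higher in the combination and 7 lower and none higher with afatinib. Subunits of the signal recognition particle were among the lower ones. SRP9 averaged 121 ± 9.10 CPM in romidepsin, 163 ± 2.84 in afatinib, 80.4 ± 10.4 in the combination and 204 ± 13.5 in DMSO, and fell in the combination (log2 fold change -1.35 with an SE of 0.07, edgeR adjusted p = 1.69e-22). SRP72 fell there too (log2 fold change -1.26 with an SE of 0.08, edgeR adjusted p = 1.16e-19), while SRP54 rose with romidepsin (log2 fold change 0.90 with an SE of 0.10, edgeR adjusted p = 1.54e-11). Of 17 COPII export genes, 8 rose and 1 fell with romidepsin, 1 rose and 6 fell with afatinib, and 7 rose and 7 fell in the combination. With library size as the scaling, 3 rose and 1 fell with afatinib, and 7 rose and 5 fell in the combination. Without the 4 libraries with keratin reads, 1 fell with afatinib and 3 fell in the combination. SAR1A and SAR1B, the GTPases that start the coat, both rose with romidepsin (log2 fold changes 0.76 and 0.75) and in the combination (1.14 and 0.98).

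Among 19 further folding genes, 9 rose and 5 fell with romidepsin, 8 rose and 7 fell with afatinib, and 8 rose and 9 fell in the combination. Beside these stand 31.1% higher and 31.5% lower among all tested genes with romidepsin, 22% and 23.3% with afatinib, and 37.2% and 37.1% in the combination. With library size as the scaling, 8 rose and 4 fell with afatinib, and 8 rose and 6 fell in the combination. With the 4 keratin-read libraries left out, 4 rose and 3 fell with afatinib and 8 rose and 5 fell in the combination. The sulfhydryl oxidase gene QSOX1 rose with romidepsin (log2 fold change 1.46 with an SE of 0.07, edgeR adjusted p = 5.62e-24) and in the combination (log2 fold change 2.09 with an SE of 0.07, edgeR adjusted p = 7.28e-31). ERP44, which retains ERO1 oxidases in the early secretory pathway, rose in the combination (log2 fold change 1.70 with an SE of 0.08, edgeR adjusted p = 3.25e-25). In a list of 19 further tested genes named for degradation, 5 rose and 4 fell with romidepsin. With afatinib 4 rose and 7 fell, and in the combination 7 rose and 8 fell. The list also holds TRAM1 and STT3B, genes of translocation and glycosylation. With library size as the scaling, 5 rose and 6 fell with afatinib, and 7 rose and 6 fell in the combination. The median log2 fold change of the list with afatinib was -0.03, and 0.08 without the 4 libraries with keratin reads. The ubiquitin-conjugating enzyme gene UBE2J1 fell in the combination (log2 fold change -1.34 with an SE of 0.07, edgeR adjusted p = 6.27e-22), as did AUP1, whose product recruits such an enzyme (log2 fold change -1.21 with an SE of 0.06, edgeR adjusted p = 2.07e-23). In a list of 12 tested genes named for the processing of IRE1 and ATF6 signals, 5 rose and 4 fell with romidepsin. With afatinib 2 rose and 5 fell, and in the combination also 2 rose and 5 fell. The list also holds genes of the CREB3 family and of the factor that binds CCAAT. With library size as the scaling, 2 rose and 4 fell with afatinib, and 5 rose and 4 fell in the combination. The list had a median log2 fold change of -0.18 with afatinib and -0.14 in the combination. Without the 4 libraries with keratin reads these medians were -0.05 and 0.03. NFYC, a subunit of the factor that binds CCAAT, was lower with romidepsin (log2 fold change -1.09 with an SE of 0.12, edgeR adjusted p = 5.71e-11) and lower in the combination (log2 fold change -1.14 with an SE of 0.12, edgeR adjusted p = 5.74e-12).

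All 5 tested receptors of ER-specific autophagy were called with romidepsin, 3 up and 2 down, beside 62.6% of all tested genes, and in the combination, also 3 up and 2 down, beside 74.3%, and 2 rose with afatinib, beside 22%. CALCOCO1 averaged 90.2 ± 5.45 CPM in romidepsin, 18.2 ± 0.830 in afatinib, 91.1 ± 4.14 in the combination and 17.3 ± 1.77 in DMSO, and rose with romidepsin (log2 fold change 2.38 with an SE of 0.09, edgeR adjusted p = 2.73e-28) and in the combination (log2 fold change 2.39 with an SE of 0.09, edgeR adjusted p = 5.8e-29). CCPG1 rose with afatinib (log2 fold change 1.26 with an SE of 0.14, edgeR adjusted p = 3.91e-10) and TEX264 fell in the combination (log2 fold change -1.30 with an SE of 0.10, edgeR adjusted p = 6.53e-16).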

How the data were processed

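RNA of 12 MyLa libraries was measured in bulk, 3 per group. Counts per gene were deposited by the authors and were made with featureCounts 2.0.0 on GENCODE 31, summed per gene name, for read pairs within a set distance, without the strand option and without reads that map to several places, per the file headers. STAR 2.7.9a, GRCh38.p12 and DESeq2 1.38.1 are named in the submitters' processing notes. Of the kit, the selection of RNA and the strand, nothing is given in the sources used here. A second deposited table, named as normalised counts, holds whole numbers that do not follow these counts and was not used.

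The unit of all tests was the deposited count. Genes passing edgeR's filter by expression (16208 of 59050) were scaled by trimmed mean factors and fitted in 1 model over all 12 libraries with 4 group means (edgeR 4.0.16, quasi-likelihood test, R 4.3.3), with p-values adjusted by Benjamini-Hochberg across them all and called below 0.05. The biological coefficient of variation was 6.13%. Standard errors are the log2 fold change over the root of its F. CPM use the scaled library sizes, and CPM per kb also the exonic length of the count table. The scripts were tested on simulated data. The members, lists and tests were chosen with earlier results of these data known. Values in every library are given for the sensors, XBP1, HSPA5 and the members with the largest called changes at a mean of at least 5 CPM, and further genes of the pathway are named by the same rule, at most 2 per list and comparison. Alternatives were DESeq2 1.42.0, other scalings and filters, a fit of only the groups compared, a replicate block, leaving out each library, and leaving out the 4 libraries with keratin reads. DERL3 was not tested for low counts.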

Additional observations from a re-analysis of the deposited data

Results flagged for a closer look

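The effect of romidepsin differed with and without afatinib for 25 of 43 tested members, by the interaction term of the edgeR fit at an adjusted p below 0.05. Beside them stand 30.2% of all tested genes, 11.7% above 0 and 18.5% below. The values below are interactions on the log2 scale, above 0 where the combination exceeded the sum of the single-drug changes.

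Above 0 were the sensor ERN1 (0.91), the chaperones and cochaperones HSPA5 (0.78), HSP90B1 (0.70), DNAJB11 (0.81), DNAJC3 (0.31), SDF2L1 (0.68) and MANF (0.98), the lectin chaperone and disulfide enzymes CALR (0.93), P4HB (0.60), PDIA3 (0.31), CRELD1 (0.52) and CRELD2 (0.55), the degradation genes HERPUD1 (1.5), SYVN1 (0.63) and EDEM3 (0.37), the translocon pore SEC61A1 (0.20) and the membrane regulator WFS1 (0.30). Below 0 were the factors XBP1 (-1.65) and ATF6B (-0.75), the cochaperone DNAJB9 (-0.58), the oxidase ERO1A (-0.51), the reductase DNAJC10 (-0.30) and the degradation genes EDEM1 (-1.57), EDEM2 (-0.74) and DERL1 (-0.35). Within the degradation group the EDEM family was split, EDEM3 lying above 0 and EDEM1 and EDEM2 below. Without the 4 libraries with keratin reads, 9 of the 25 interactions were not past the threshold: DNAJB9 (-0.36), DNAJC3 (0.28), PDIA3 (0.23), DNAJC10 (-0.25), CRELD1 (0.46), DERL1 (-0.27), EDEM3 (0.31), SEC61A1 (0.14) and WFS1 (0.20). That of SEC61A1 was also lost without any of DMSO replicate 1, afatinib replicates 1, 2 and 3, combination replicate 1 and romidepsin replicates 1 and 3 (0.18 to 0.22).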

How the results depend on the processing

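The counts of members called in the 6 comparisons moved by less than 1.5 times under DESeq2, DESeq2 size factors, both other filters, the replicate block and each left-out library, and in the 5 comparisons of 2 groups under a fit of only the groups compared, which gives no interaction. Exceptions came from 2 settings. Scaled by library size alone, afatinib lowered 10 members, against 16, beside 17.3% of all tested genes, against 23.3%. Without the 4 libraries with keratin reads, which leaves 1 DMSO library assumed to vary like the other groups, romidepsin lowered 4 members (8 with all libraries), afatinib lowered 7 (16) and the combination lowered 8 (14), each against DMSO, and 11 members had an interaction above 0 (17) and 5 below (8). Over the single members' comparisons, 35 calls were lost and 2 gained in that setting, and SSR2 with romidepsin had 0.0223, against a called -0.31 with all libraries. Which property of these libraries moved the values was not tested. Library size alone lost 11 calls and gained 9, DESeq2 lost 7 and gained 2, no filter lost 9, and leaving out 1 library lost 94 and gained 45 over all such fits, with no direction turned.

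The replicate numbers did not pair the samples: over 18 pairs of same-numbered libraries the correlation of deviations from the group means was -0.0899 to 0.0894, and 3 of 12 libraries were closest to their own number. With a replicate block, 27 members were higher and 8 lower with romidepsin, 9 and 16 with afatinib, 23 and 14 in the combination, 16 and 10 in the combination against romidepsin, 27 and 10 against afatinib, and 16 and 8 in the interaction. At these depths 3 counts are 0.229 to 0.344 CPM, so that for DERL3, PDIA5 and SEC61G small changes were not detectable.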
